A study of Saccharomyces cerevisiae with 6 samples.

Results

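The nuclear genes of the mitochondrial folding machinery were followed in budding yeast with and without an artificial chromosome. The group was fixed by name as 9 of the 7554 transcripts of the deposited table: HSP60, HSP10, TCM62, SSC1, ECM10, MDJ1, MGE1, ZIM17 and HSP78. RNA came from 2 Saccharomyces cerevisiae strains with 3 libraries each: yMH007, which contains dChr, a chromosome of artificial sequence made to carry data, and yMH104, the control, which holds an empty plasmid. Both strains were grown alike at the same temperature in SC-Ura, a synthetic medium without uracil, and were harvested at the same range of optical density. The labels give no further alleles, do not say whether each strain is 1 clone, and do not state whether separate cultures were used for the libraries, so p-values measure the spread between these libraries, which may be technical. The study asked whether artificial DNA is packed and transcribed in yeast; no transcript of the table is annotated as part of dChr, so the strain labels could not be checked against it here.

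Most mitochondrial proteins are made in the cytosol and threaded into the matrix unfolded. Ssc1, the matrix Hsp70, pulls them in as part of the import motor and begins their folding, with Mdj1 (a J-protein) starting its ATP cycle, Mge1 (a nucleotide exchange factor) resetting it and Zim17 (also called Hep1) keeping Ssc1 from aggregating. Many of these chains then fold inside the Hsp60 chaperonin, a barrel that Hsp10 caps. Hsp78, a relative of bacterial ClpB and of cytosolic Hsp104, pulls aggregated proteins apart together with Ssc1. Several of these genes are known targets of heat shock factor, which binds repeats of an inverted GAA unit.

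In the dChr strain the disaggregase gene HSP78 was 4.11-fold above the control in mean TPM (a length-normalized relative abundance). MDJ1 and SSC1 rose 1.96-fold and 1.43-fold and HSP60 rose from 186 to 278 TPM, while TCM62 fell to 0.543 of the control. In the limma test of log2(TPM + 1), with p-values adjusted over 5938 transcripts (Benjamini-Hochberg) and a threshold of 0.05, 4 of the 9 genes were called higher and 1 lower. HSP10, ECM10 and ZIM17 were not called, and MGE1 was below the filter of a mean of 1 TPM over the 6 libraries and was not tested. Over all tested transcripts 4.19% were called higher and 9.16% lower, so calls of higher genes were the rarer ones in the table. This background depended on the scaling: 249 were higher and 544 lower here, against 496 and 642 with median-ratio scaling and 555 and 561 with quantile normalization. The 3 dChr libraries all lay above the 3 control libraries for 5 members and all below them for 1, where 12.9% and 21.2% of all tested transcripts had libraries apart in these directions. The median log2 fold change of the 8 tested members was 0.49, against -0.04 for all tested transcripts.

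**Figure D1:**
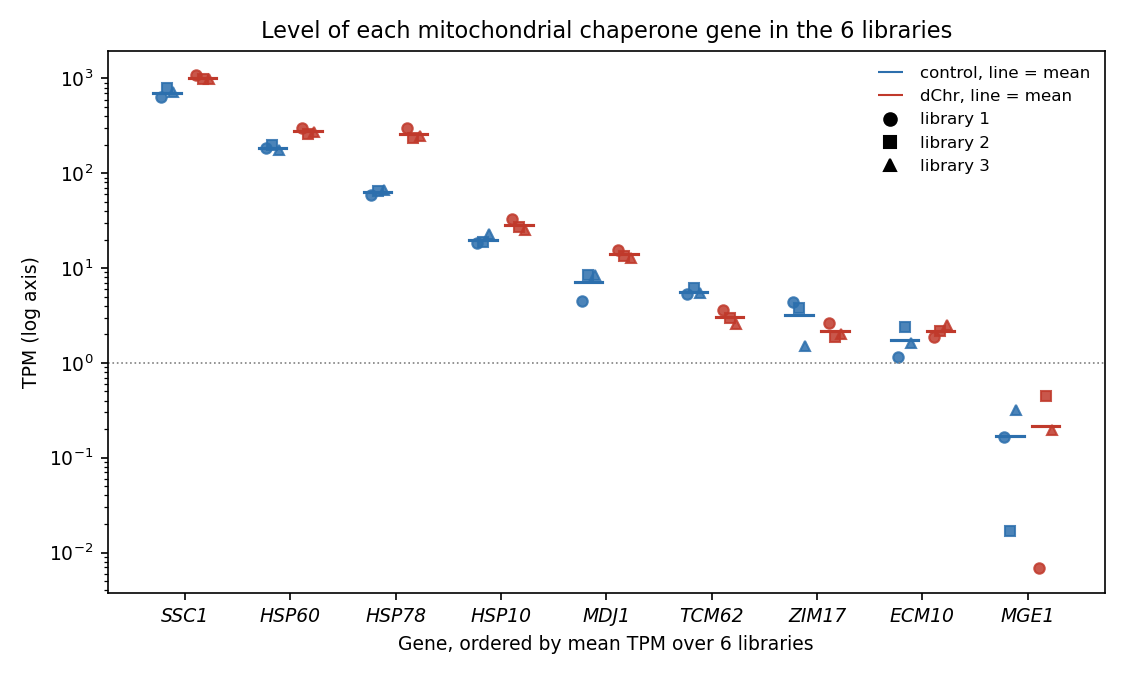
TPM of each gene on a log axis in the 3 control libraries (blue) and the 3 dChr libraries (red), with a line at each strain's mean and a dotted line at 1 TPM. HSP78 shows the widest gap, from 63.5 to 260.5 TPM, and MGE1 lies below 1 TPM in every library.

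**Figure D2:**
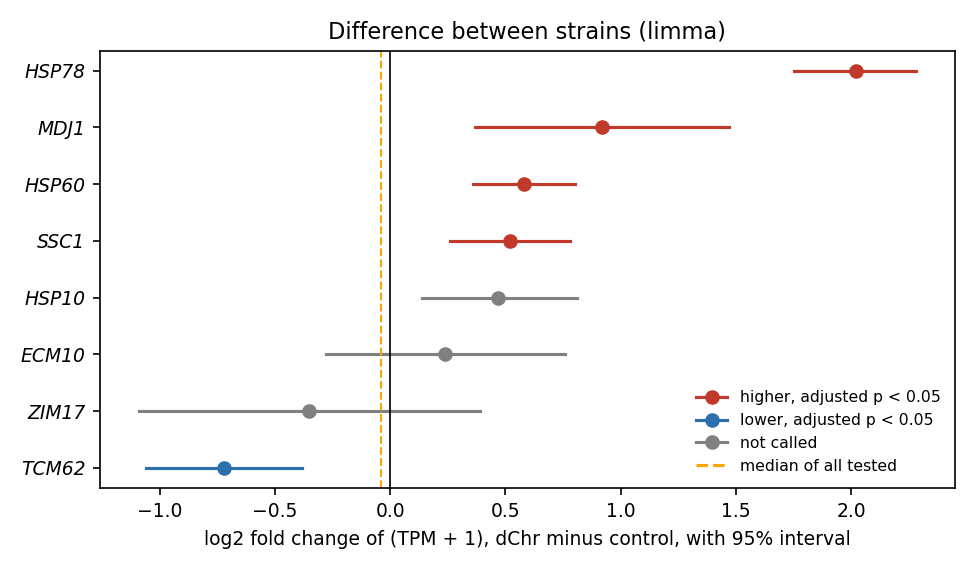
Log2 fold change of TPM + 1, dChr minus control, with 95% limma intervals, for the 8 tested genes, coloured by call; the dashed line marks the median of all tested transcripts. HSP78 stands at 2.02 and TCM62 at -0.72, and the interval of HSP10 lies above 0 although its adjusted p missed the threshold.

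The DNA before these genes was read from the R64 reference (RefSeq), the assembly that sacCer3 represents, from 250 bases before to 50 after each annotated gene start. A heat shock element of 3 units, in which TTC and GAA alternate with any 2 bases between them, was searched on both strands and found before HSP78, HSP60 and HSP10 and before none of the other 6 members. Such a match was present in 47 of 6001 promoter windows of protein-coding genes (0.783%). The stress response element, AGGGG or CCCCT (the same letters on the other strand), bound by Msn2 and Msn4, was present 3 times before HSP78 and once before ECM10, and in 21.6% of all windows. The stretches that hold the heat shock elements are shown because these genes include the one with the largest fold change; each runs 5′ to 3′ from base -250 to base -101 on the gene's own strand, and capitals mark heat shock element units (TTCNNGAA or GAANNTTC) and stress response elements.
HSP78: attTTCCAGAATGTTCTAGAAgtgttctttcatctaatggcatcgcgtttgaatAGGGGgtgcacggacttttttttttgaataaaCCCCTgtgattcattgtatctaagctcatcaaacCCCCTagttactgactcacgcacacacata
HSP60: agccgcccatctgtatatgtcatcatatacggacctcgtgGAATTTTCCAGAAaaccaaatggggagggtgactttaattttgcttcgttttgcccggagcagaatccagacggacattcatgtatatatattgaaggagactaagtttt
HSP10: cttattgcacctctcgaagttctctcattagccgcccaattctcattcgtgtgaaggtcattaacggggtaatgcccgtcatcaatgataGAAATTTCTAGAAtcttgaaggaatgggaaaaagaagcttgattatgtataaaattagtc
These stretches lie on the minus strand at chrIV:974344-974493, chrXII:665103-665252 and chrXV:370945-371094. Before HSP78 the letters of both 3-unit forms overlapped and spanned bases -247 to -230. The single matches lay at -210 to -198 before HSP60 and at -160 to -148 before HSP10. HSP60 also had a separate 2-unit match at -44 to -37. No match in a window says only that these letters are not there. With 500 bases before the start, a length chosen after seeing the data, the heat shock element of 3 units was before the same 3 members, but the stress response element was before 6 in place of 2: TCM62, SSC1, ECM10, MDJ1, ZIM17 and HSP78. At that length 36.4% of all windows held a stress response element.

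**Figure D3:**
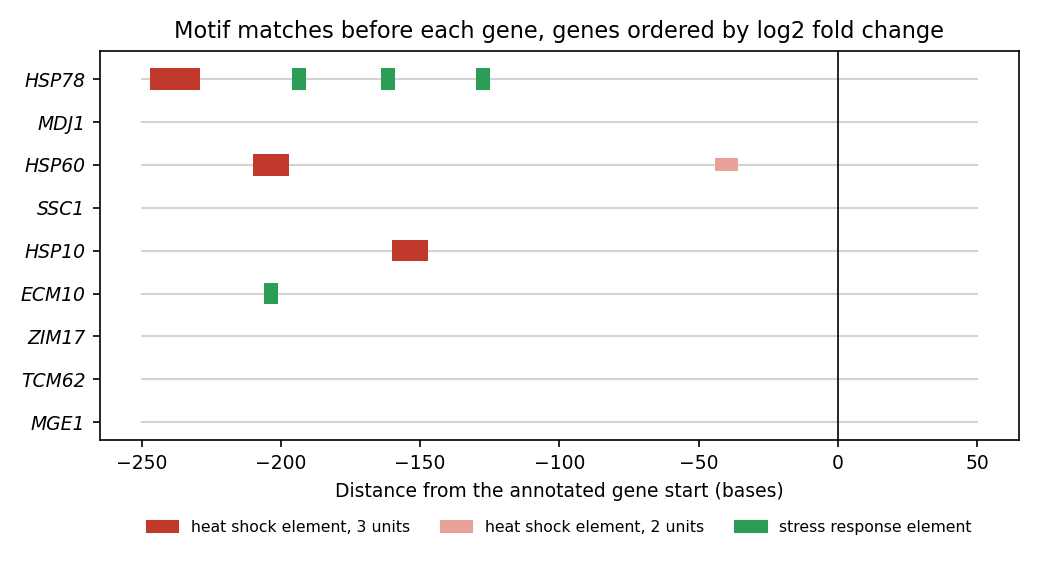
Positions of motif matches relative to the annotated start of each gene (0, in bases), with genes ordered from the highest log2 fold change down to TCM62 and with the untested MGE1 last. Within these windows HSP78 alone of the 9 has both kinds of element, and MDJ1 and SSC1, which rose, have neither; with 500 bases before the start both of the latter have a stress response element.

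Of the 47 genes with a 3-unit element in this window 40 were tested, and 12 of them were called higher (30%) and 3 lower. Among all 5082 tested genes with a window 4.27% were called higher and 9.62% lower. The median log2 fold change was 0.32 with the element and -0.04 over all windows. The 40 include HSP78, HSP60 and HSP10, so this is a description and not independent of the members.

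The chaperonin gene and its partner were described first. HSP60 (YLR259C), on chromosome XII at 663284 to 665002 on the minus strand, is 1 coding exon, as are the other 8 genes on this reference, and none of the 9 overlaps another annotated gene. It stood at 301, 259 and 275 TPM in dChr libraries 1, 2 and 3 and at 185, 197 and 175 TPM in control libraries 1, 2 and 3. The lowest dChr library was above the highest control library. The means were 278 ± 21.0 and 186 ± 11.3 TPM (SD, n = 3 each), with a log2 fold change of 0.58 ± 0.09 SE and a limma adjusted p of 0.0101. This call held in all 17 alternative analyses, with adjusted p from 0.00299 to 0.0456.

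HSP10 (YOR020C), the lid of the chaperonin, is a short gene of 321 bases on chromosome XV at 370524 to 370844. It was at 32.8, 26.9 and 24.97 TPM in dChr libraries 1, 2 and 3 and at 18.2, 18.9 and 23.0 TPM in control libraries 1, 2 and 3. The strains did not overlap, but dChr library 3 and control library 3 were close. The log2 fold change of 0.47 ± 0.14 SE (95% interval 0.14 to 0.81) had a limma adjusted p of 0.0793, so it was not called; the unadjusted p was 0.013. With a robust variance trend it was called (limma adjusted p = 0.0479).

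TCM62 (YBR044C), on chromosome II at 324341 to 326059, encodes a mitochondrial protein related to chaperonins that is needed to assemble succinate dehydrogenase. It went the other way from HSP60, at 3.65, 2.98 and 2.59 TPM in dChr libraries 1, 2 and 3 against 5.39, 6.11 and 5.48 TPM in control libraries 1, 2 and 3. No dChr library reached the lowest control library. The log2 fold change on the TPM + 1 scale was -0.72 ± 0.14 SE (limma adjusted p = 0.0212), a scale that understates the change of so low a gene. The call was lost when any single library except dChr library 1 was left out (adjusted p from 0.053 to 0.0737), and without assembled transcripts (0.0518). The coding sequences of HSP60 and TCM62 were 58.1% identical over 1558 aligned bases, with no shared run above 11 bases.

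The genes of the matrix Hsp70, its relative and its partners followed. SSC1 (YJR045C), on chromosome X at 519638 to 521602, was the most abundant of the 9 in every library. It was at 1078, 982 and 981 TPM in dChr libraries 1, 2 and 3 and at 632, 785 and 716 TPM in control libraries 1, 2 and 3. The strains did not overlap, and the control libraries were spread more widely. The log2 fold change was 0.52 ± 0.11 SE (limma adjusted p = 0.0261). The call was lost when any single library except control library 2 was left out (adjusted p from 0.051 to 0.105), without mitochondrially encoded and non-coding transcripts (0.0602), without assembled transcripts (0.0742) and with a replicate block (0.0579), while the log2 fold change stayed between 0.43 and 0.59 in the 17 alternatives.

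MDJ1 (YFL016C), on chromosome VI at 104701 to 106236, encodes the J-protein partner of Ssc1. It stood at 15.7, 13.5 and 12.8 TPM in dChr libraries 1, 2 and 3 and at 4.52, 8.38 and 8.54 TPM in control libraries 1, 2 and 3. The strains did not overlap, and control library 1 lay well below the other controls. The log2 fold change was 0.92 ± 0.23 SE (limma adjusted p = 0.0461), close to the threshold. It was lost when any single library except control library 1 was left out (adjusted p from 0.0592 to 0.146) and in 4 of the other alternatives, where the log2 fold change was 0.87 or 0.92.

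ECM10 (YEL030W), on chromosome V at 94644 to 96578, is a close relative of SSC1 that was far less abundant. It was at 1.88, 2.15 and 2.53 TPM in dChr libraries 1, 2 and 3 and at 1.17, 2.41 and 1.61 TPM in control libraries 1, 2 and 3. The strains overlapped, and the log2 fold change of 0.24 (95% interval -0.28 to 0.76) was not called (limma adjusted p = 0.521). The coding sequences of ECM10 and SSC1 were 76.3% identical over 1928 aligned bases, and their longest shared run was 26 bases. How reads that match both were counted is not given in the sources used here, so the low values of ECM10 are uncertain.

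ZIM17 (YNL310C), on chromosome XIV at 51907 to 52431, was at 2.66, 1.87 and 1.999 TPM in dChr libraries 1, 2 and 3 and at 4.402, 3.81 and 1.51 TPM in control libraries 1, 2 and 3. Control library 3 lay below all dChr libraries and the other controls above them. The log2 fold change of -0.35 had a 95% interval of -1.09 to 0.39 (limma adjusted p = 0.516), so no direction could be given at this spread.

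MGE1 (YOR232W), on chromosome XV at 774573 to 775259, was listed at 0.00684, 0.446 and 0.197 TPM in dChr libraries 1, 2 and 3 and at 0.164, 0.0171 and 0.323 TPM in control libraries 1, 2 and 3. No order between the strains was visible. The gene is essential for growth in yeast, so a listed value near 0 is not read as absence of its RNA, and no fold change is given. PAM16 of the import motor and JAC1, a J-protein of iron-sulfur cluster assembly, are essential as well and were listed at means of 0.363 and 0.270 TPM. Why such genes are listed so low was not tested.

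HSP78 (YDR258C), on chromosome IV at 971808 to 974243, showed the largest fold change of the 9; in TPM the difference of SSC1 was larger. It stood at 298, 238 and 246 TPM in dChr libraries 1, 2 and 3 and at 59.0, 64.5 and 66.8 TPM in control libraries 1, 2 and 3. Each dChr library was far above each control library. The log2 fold change was 2.02 ± 0.11 SE (95% interval 1.75 to 2.28, limma adjusted p = 0.000241), the 18th smallest p of 5938, and 0.825% of tested transcripts had a higher log2 fold change. It was called in all 17 alternatives, with a log2 fold change between 1.92 and 2.08 and adjusted p of at most 0.00645.

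The order of the levels was nearly the same in both strains, while HSP78 moved close to HSP60. In the control the order by mean TPM was SSC1, HSP60, HSP78, HSP10, MDJ1, TCM62, ZIM17, ECM10 and MGE1, and with dChr ECM10 and ZIM17 changed places. In the dChr strain the ranges of HSP78, at 260.5 ± 32.3 TPM, and HSP60, at 278 ± 21.0 TPM, overlapped between libraries. Within each dChr library HSP60 was still the higher. The control means of HSP78 and HSP60 were 63.5 ± 3.97 and 186 ± 11.3 TPM. The libraries of ZIM17 and ECM10 overlapped in both strains. The 9 genes together summed to 1733, 1527 and 1547 TPM in dChr libraries 1, 2 and 3 and to 910, 1086 and 998 TPM in control libraries 1, 2 and 3. SSC1 made up 62.2% to 64.3% of that sum with dChr and 69.4% to 72.2% in control libraries, and HSP78 made up 15.6% to 17.2% and 5.94% to 6.69%.

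The balance between partners was compared by 7 ratios of TPM within a library, which do not depend on the scaling between libraries. The chaperonin pair did not separate the strains: HSP60 to HSP10 was 9.16, 9.65 and 11.0 in dChr libraries 1, 2 and 3 and 10.2, 10.5 and 7.60 in control libraries 1, 2 and 3 (exact permutation test, two-sided, p = 0.8). The ranges overlapped, with the lowest value in control library 3. HSP78 to SSC1 was 0.276, 0.242 and 0.251 in dChr libraries 1, 2 and 3 against 0.0935, 0.0822 and 0.0933 in control libraries 1, 2 and 3, a log2 difference of 1.52. TCM62 to HSP60 was 0.0110 ± 0.00142 in the dChr strain against 0.0305 ± 0.00122 (SD, n = 3 each), a log2 difference of -1.47. MDJ1 to SSC1 was 0.0138 ± 0.000760 against 0.00992 ± 0.00248, also without overlap. Its log2 difference of 0.51 rested in good part on control library 1 and was 0.29 without it. Without that library the log2 difference was 1.55 for HSP78 to SSC1 and -1.51 for TCM62 to HSP60. With 3 against 3 libraries the exact permutation test cannot go below p = 0.1, which these 3 ratios reached (0.233 after Benjamini-Hochberg adjustment over the 7), so none passes the threshold. ZIM17 to SSC1 and ECM10 to SSC1 overlapped between strains (exact permutation test, p = 0.2 and 0.6), and MGE1 to SSC1, which rests on values of MGE1 below 1 TPM, had p = 0.7 in the same exact test.

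**Figure D4:**
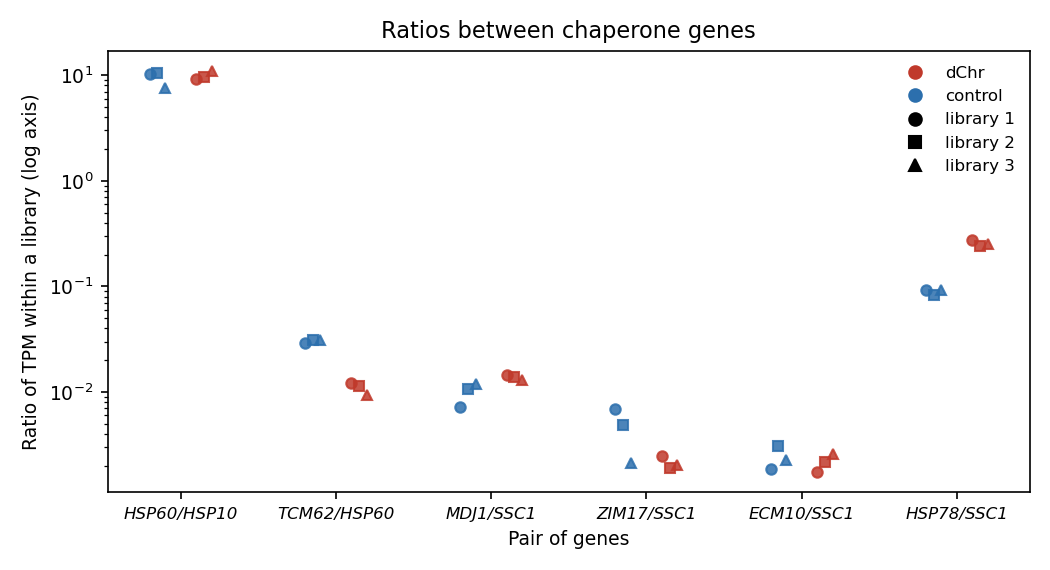
Ratio of TPM within each library (log axis) for 6 pairs of genes, in control (blue) and dChr (red) libraries; MGE1 to SSC1 is not drawn. HSP78 to SSC1 and TCM62 to HSP60 separate the strains, and HSP60 to HSP10 does not.

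Within the dChr strain 7 of the 9 genes were highest in library 1, as were 22.7% of all tested transcripts. On the log2(TPM + 1) scale library 1 exceeded the mean of dChr libraries 2 and 3 by 0.33 for HSP10, 0.30 for HSP78, 0.24 for MDJ1, 0.17 for HSP60 and 0.13 for SSC1, where the median of all tested transcripts was -0.04. Without dChr library 1, HSP78 and HSP60 were still called, and SSC1 and MDJ1 were not. Over the 6 libraries the log2 values of these 5 genes had Pearson correlations of 0.83 to 0.98 in 10 pairs. These 5 are the members whose dChr libraries all lay above the control libraries, which by itself makes such values positive. The remaining tested members did not follow them as closely. With the 5 genes r was -0.92 to -0.69 for TCM62, -0.61 to -0.26 for ZIM17 and 0.30 to 0.69 for ECM10. All these values share the strain difference and the TPM scaling, so the correlations are a description only. By the same measure, of 2632 protein-coding genes with a mean of at least 10 TPM, those most like the mean standardized profile of the 8 tested members were CUB1 (r = 0.992), GPM1 (0.986), YER134C (0.986), PER33 (0.985) and STE24 (0.984), over 6 libraries. That profile also averages TCM62 and ZIM17, whose log2 fold changes were negative, and the named genes are the extremes of many candidates. GPM1 was not called (limma adjusted p = 0.145). The calls of CUB1, YER134C, PER33 and STE24 were lost in 10, 7, 5 and 9 of the 17 alternatives.

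In 3 lists of genes that bring proteins into mitochondria or process them there limma called no gene higher, and at an unadjusted p under 0.05 it placed 0, 1 and 0 genes higher and 3, 5 and 2 lower, in the order below. Over all tested transcripts 4.19% were called higher and 9.16% lower at the adjusted threshold, and the few calls in these lists are not set apart from that background. The share of all tested transcripts with an unadjusted limma p under 0.05 was not taken. HSP10, with an unadjusted limma p of 0.013, ranked 970 of 5938, so such values were common. The unadjusted counts, here and in the lists below, are therefore a description only. With no background share at that threshold they cannot say whether a list leans. Of 9 tested genes of the TIM23 translocase and import motor 0 rose and 1 fell, with a median log2 fold change of -0.27: PAM18, the J-protein that stimulates Ssc1 at the import channel, fell by 0.64 (limma adjusted p = 0.0472), a call lost whichever single library was left out and with a replicate block (adjusted p = 0.106 with the block, and at most 0.126 over the alternatives that lost it). Of 22 outer membrane entry and intermembrane space import genes 0 rose and 2 fell (median -0.09). TOM7 and TOM6, small subunits of the entry pore, fell by 0.68 and 0.38 (limma adjusted p = 0.0232 and 0.0253). TOM7 was no longer called without dChr library 1, 2 or 3 or control library 3 (adjusted p from 0.0526 to 0.0791 over the alternatives that lost it), and TOM6 without each of these or control library 1 (0.0532 to 0.243). Of 20 processing peptidases and quality control proteases 0 rose and 1 fell (median 0.00): MAS2, a subunit of the presequence-cleaving peptidase, fell by 0.47 (limma adjusted p = 0.0312), a call lost without control library 1 or any dChr library (adjusted p from 0.0514 to 0.181 over the alternatives that lost it). The Lon protease gene PIM1, chosen after its value was seen, had a log2 fold change of 0.11.

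Factors that fold or assemble mitochondrial proteins by other routes were taken next. Limma called 0 of 6 tested genes of this list (0 at an unadjusted p under 0.05), among them CPR3, the matrix cyclophilin, at 177 ± 8.95 TPM with dChr and 170 ± 11.8 TPM without, and JID1, a J-protein, at 8.27 ± 1.32 and 8.93 ± 1.95 TPM. Of 11 tested genes for the outer membrane channel, carriers and fusion 0 rose (1 was higher at an unadjusted p under 0.05 in limma) and 2 fell (median -0.17), beside 4.19% and 9.16% of all tested transcripts. OAC1, the oxaloacetate carrier of the inner membrane, was at 39.2, 51.8 and 49.4 TPM in dChr libraries 1, 2 and 3 against 204, 220 and 202 TPM in control libraries 1, 2 and 3, and fell by 2.14 on the log2 scale (limma adjusted p = 0.000241). The strains were far apart for it. POR1, the abundant outer membrane porin, fell by 0.45 (limma adjusted p = 0.0351), which was no longer called without dChr library 1, 2 or 3 or control library 1 or 2 (adjusted p from 0.0533 to 0.204 over the alternatives that lost it). With median-ratio scaling PAM18, TOM6 and POR1 were not called.

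The counterparts of these chaperones elsewhere in the cell were set beside them. Of 10 tested counterparts in the cytosol and the endoplasmic reticulum 6 rose and 0 fell in limma (7 and 0 at an unadjusted p under 0.05), with a median log2 fold change of 1.05. Over all tested transcripts 4.19% were called higher and 9.16% lower. Of the 6 calls, that of SSA2 was lost in 7 of the 17 alternatives (limma adjusted p there 0.0505 to 0.0803). That of YDJ1 was lost in 3 (0.0554 to 0.0723), each without a dChr library. HSP104, the cytosolic relative of HSP78, rose by 1.72 (limma adjusted p = 0.000507), and SSA4, a stress-induced cytosolic Hsp70, by 2.76, while KAR2, the Hsp70 of the endoplasmic reticulum, rose by 1.36. The coding sequences of HSP78 and HSP104 were 63.5% identical over 2352 aligned bases, with no shared run above 17 bases. Limma called 0 of 8 genes of CCT, the cytosolic chaperonin (2 lower at an unadjusted p under 0.05, median -0.07): CCT8 stood at 90.5 ± 2.50 TPM against 110 ± 11.5, and TCP1 at 83.0 ± 4.38 against 84.2 ± 4.48 (SD, n = 3). Whether the mitochondrial members differ from either list was not tested.

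**Figure D5:**
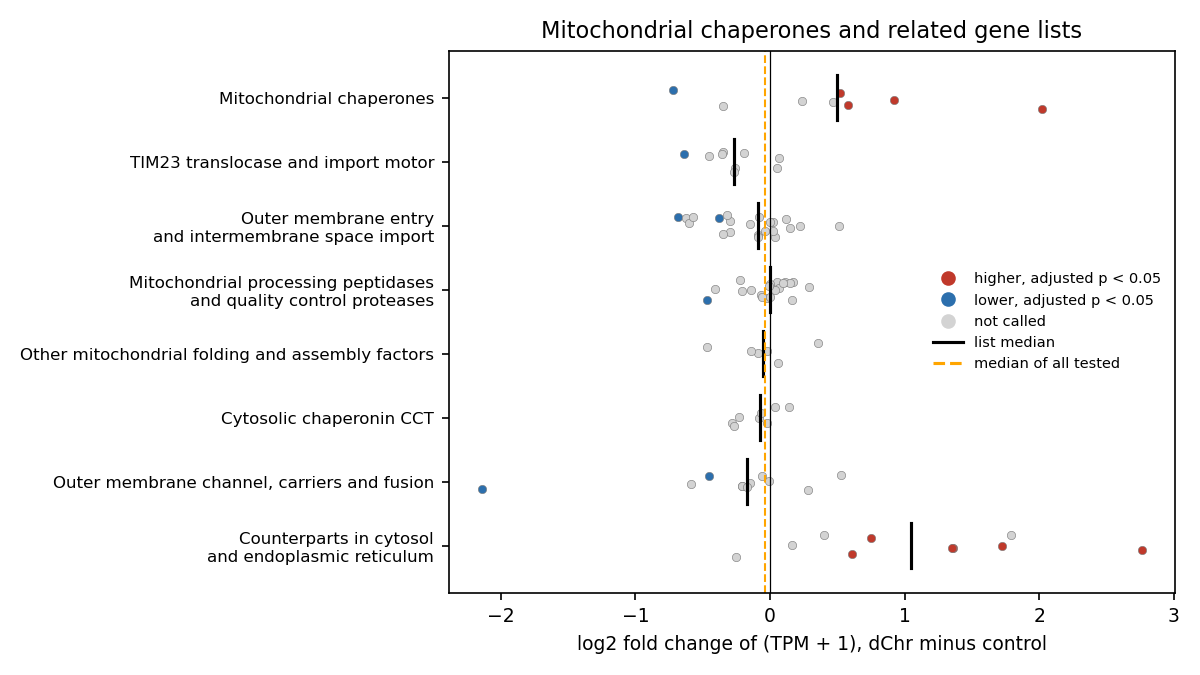
Log2 fold change of every tested gene, dChr minus control, by list, coloured by call, with the list median (black bar) and the median of all tested transcripts (dashed line). The chaperones and their counterparts hold the genes called higher, and the genes called in the other lists lie on the lower side.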

How the data were processed

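The table deposited by the authors holds TPM, 1 column per library, summing to between 970077 and 992087, with no replicates pooled. Sequencing depth is unknown, since TPM do not keep it, and counting intervals are therefore not given. The submitters' processing notes name sacCer3 and, with no roles, HISAT2 2.0.5, StringTie 2.0, cutadapt 2.6, R 3.6.0 and DESeq2; for the strandedness and filters used nothing is stated. Groups came from the sample titles. Transcripts averaging 1 TPM or more were fitted on the log2(TPM + 1) scale with limma 3.58.1 (R 4.3.3, eBayes with an intensity trend, no replicate term, two-sided). The fit was tested on simulated data. Ratios used the exact permutation test of scipy 1.17.1. Gene positions and promoter sequences came from RefSeq R64, read with Biopython 1.88 and Python 3.11.15 (pandas 2.3.3, numpy 2.4.6, matplotlib 3.10.9); 6014 of 7554 names matched. Coding sequences were aligned globally.

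The members, lists and tests were chosen with earlier results of these data known. Named genes were the 9 members, up to 3 called genes per list and direction with the smallest p (with no call, the 2 highest in mean TPM), and the 5 most correlated genes. Alternatives were other pseudocounts, filters, scalings, transcript sets and variance models, a replicate block, and fits that left out 1 library each.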

Additional observations from a re-analysis of the deposited data

How the results depend on the processing

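HSP78 and HSP60 were called in all 17 alternatives, and no tested member changed direction in any of them; of 133 results on members 23 lost a call and 1 gained one. Removing mitochondrially encoded and non-coding transcripts left 2 members called higher. Removing assembled transcripts left 0 members called lower (TCM62 and SSC1 lost their calls there), 511 transcripts called in all and 6 members of the 7 lists; the cause was not tested. A mean of at least 10 TPM left 0 members called lower, since TCM62 was then not tested. Leaving out 1 library, with fewer samples in each fit, gave 2 to 3 members called higher (2 without dChr library 1, 2 or 3 or control library 3), 0 to 1 called lower, 395 to 630 transcripts called in all (fewest, 395, 465 and 521, without dChr libraries 1, 3 and 2) and 5 to 10 list members, against 12 with all libraries. Heat shock elements of 2 units, which every 3-unit match contains and 22.6% of all windows held, were before the same 3 members. With 500 bases before the start, chosen after seeing the data, these 3 members again held 3 units (1.52% of all windows) and 2 units (37.8%), while members with a stress response element went from 2 to 6 (36.4% of all windows). With a replicate block 2 members were called higher, HSP78 and HSP60, SSC1 and MDJ1 having adjusted p = 0.0579 and 0.0908, and 834 transcripts were called in all. Same-numbered libraries deviated from their strain means with correlations of 0.09, -0.08 and 0.12, and best matches did not always follow the number, so no pairing is shown. Precision is limited by 3 libraries per strain and by the unknown depth.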
